A study of Mus musculus with 5 samples.

Results

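The 10 genes described here mark the perivascular and stromal cells of the kidney: Pdgfra, Pdgfrb, Cspg4, Rgs5, Des, Thy1, Acta2, Tagln, Myh11 and Cnn1. They were chosen by symbol, as 10 of the 23997 rows of a table of gene expression in whole mouse kidney, and each had a row of its own. Expression was given as FPKM, a fragment count scaled to transcript length and to the size of the library, so levels of different genes can be set side by side per length. The table held 3 control libraries (Control_0, Control_1 and Control_2), labelled with the genotype uninduced control, and 2 libraries titled SKO and labelled with the genotype Pkd1 knockout (SKO_0 and SKO_1). All came from kidneys of mice aged 8 weeks. The design text calls the mutants PkdTKO. How the knockout was induced, in which cells, on what strain background and whether controls and mutants shared any allele or inducing agent is not given in the labels, nor do they say that each library was 1 animal. The p-values therefore reflect just the scatter among these samples, which may be technical.

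Pericytes wrap the capillaries of the kidney, vascular smooth muscle cells form the wall of its arteries and arterioles, and fibroblasts lie between the tubules. Pericytes and fibroblasts carry receptors for platelet-derived growth factor (PDGF), and in injured or cystic kidneys they are the main known source of myofibroblasts, contractile cells that deposit scar matrix. Smooth muscle alpha-actin (Acta2) is the customary marker of the myofibroblast, but arterial smooth muscle makes it too, whereas smooth muscle myosin heavy chain (Myh11) and calponin (Cnn1) are regarded as markers of differentiated smooth muscle. In RNA from a whole kidney, fewer cells of a type and less RNA per cell cannot be told apart.

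Of 6 podocyte markers, which define the kidney glomerulus, 0 were at 0 in any library, and their summed FPKM was 104.1 to 135 in the controls, 95.7 in SKO_0 and 142.7 in SKO_1. The libraries differed in more than genotype. Pkd1 itself, which encodes polycystin-1, was at an FPKM of 3.22 to 3.51 in the controls, 2.715 in SKO_0 and 3.60 in SKO_1, so the value over the whole gene does not check the labels, and every direction below is that of the libraries labelled as knockouts. The injury marker Havcr1 was at 0.718 to 1.12 in the controls, 137.4 in SKO_0 and 0.593 in SKO_1. Xist, a transcript of female cells, was at 0.0222 to 0.0275 in the controls and at 30.75 and 80.3 in SKO_0 and SKO_1, whereas the Y-linked gene Ddx3y was at 17.8 to 18.6 in the controls, 7.30 in SKO_0 and 0.00194 in SKO_1. SKO_0 thus held RNA of both Xist and Ddx3y, whereas SKO_1 held Xist with almost no Ddx3y, so the knockout libraries also differed from each other in these transcripts. The sex of the RNA and the genotype cannot be told apart in these groups. The part of sex in the differences between SKO_0 and SKO_1 was not tested.

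Of the 10 genes 1 rose, 0 fell and 9 did not pass in the comparison of the 2 knockout libraries with the 3 controls (limma on log2(FPKM + 1), Benjamini-Hochberg adjusted p under 0.05 over 12640 tested rows). Over all tested rows 2.73% were called higher and 3.62% lower, 6.34% in all, so 1 call among 10 genes is near that background. The gene that rose was Cspg4, and 4 of the 10 had an unadjusted p under 0.05, against 29.1% of all rows. The groups did not overlap in 4 of the 10 (Pdgfrb, Cspg4, Des and Thy1), all higher, where 48.2% of all rows had no overlap, 21.9% higher and 26.3% lower. The median log2 fold change of the 10 genes was 0.39, against -0.02 over all tested rows. By library the median difference from the control mean was 0.47 in SKO_0 and 0.21 in SKO_1 (all rows -0.04 and 0.00).

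The knockout libraries differed from each other in which genes stood out. SKO_0 lay above every control in 6 of the 10 genes and below every control in 3 (all tested rows 34.2% and 43.9%). SKO_1 lay above every control in 6, of which 4 were shared, and below every control in 1 (all tested rows 38.4% and 38.5%). Fitted alone against the controls, SKO_0 gave 6 calls among the 10 genes (Thy1, Tagln, Acta2, Pdgfrb and Cspg4 higher, Pdgfra lower), where 20.6% of all rows were called, 11.5% higher and 9.09% lower. SKO_1 alone gave 1 call, Rgs5, which is higher there, where 8.34% of all rows were called, 4.09% higher and 4.25% lower. Such a fit assumes that a lone knockout library varies like the controls, and no test was made of SKO_0 against SKO_1.

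**Figure D1:**
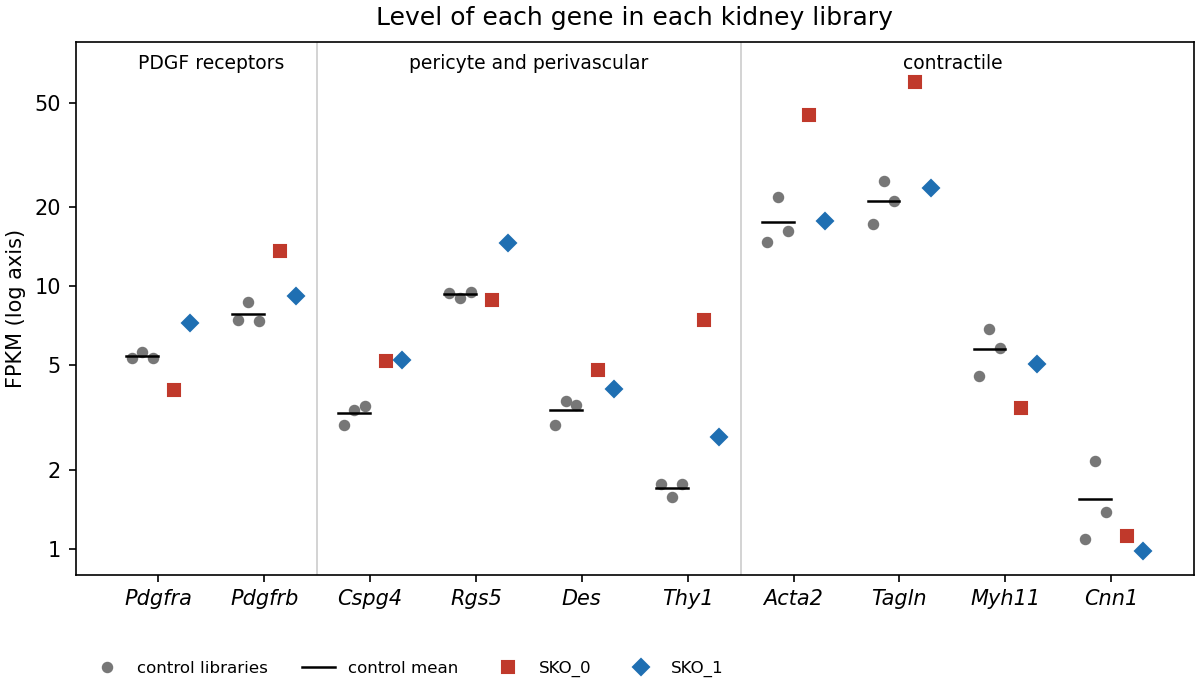
FPKM of each gene (log axis) in the 3 control libraries (grey circles, black bar for their mean), SKO_0 (red square) and SKO_1 (blue diamond). Acta2 and Tagln reach 45.0 and 59.9 in SKO_0 but lie among the controls in SKO_1, Rgs5 is highest in SKO_1 at 14.6, and Cspg4 is at 5.18 and 5.25 in the knockout libraries.

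In the controls the order of levels ran from Tagln (mean FPKM 21.2) and Acta2 (17.6) through Rgs5 (9.31), Pdgfrb (7.86), Myh11 (5.76), Pdgfra (5.42), Des (3.38) and Cspg4 (3.29) to Thy1 (1.70) and Cnn1 (1.55). The control ranges overlapped for the neighbours Tagln and Acta2, Myh11 and Pdgfra, Des and Cspg4, and Thy1 and Cnn1, and not for the other neighbours. Tagln and Acta2 held the first and second place in all 5 libraries. Thy1 moved from place 9 or 10 in the controls to place 5 in SKO_0, and Myh11 from place 5 or 6 to place 9. In SKO_1 Thy1 stayed at place 9 and Myh11 was at place 7.

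The PDGF receptors parted in SKO_0. Pdgfrb (ENSMUSG00000024620.11), the receptor of pericytes, mesangial cells and fibroblasts, had an FPKM of 7.45, 8.74 and 7.40 in Control_0, Control_1 and Control_2, 13.6 in SKO_0 and 9.17 in SKO_1. Both knockout libraries lay above every control, SKO_1 by a narrow margin. On the log2 scale Pdgfrb was higher by 0.46 (95% interval 0.04 to 0.89, SE 0.17), which missed the threshold (limma adjusted p = 0.151). The two-sided exact permutation test gave p = 0.1, the smallest that 3 against 2 libraries allow. Against the controls, SKO_0 alone gave a log2 difference of 0.72 (limma adjusted p = 0.022) and SKO_1 alone 0.20 (adjusted p = 0.278).

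Pdgfra (ENSMUSG00000029231.15, mm10 chromosome 5, 75152292 to 75198215, plus strand), the receptor of interstitial fibroblasts that binds PDGF-A and PDGF-C, went the other way in SKO_0. Its FPKM was 5.32, 5.61 and 5.335 in the controls, 4.05 in SKO_0 and 7.24 in SKO_1. The controls lay close together, with SKO_0 below all of them and SKO_1 above all of them. The log2 difference was -0.35 in SKO_0 alone (limma adjusted p = 0.0363) and 0.36 in SKO_1 alone (adjusted p = 0.0532), so the fit over both came to 0.01 (SE 0.207, adjusted p = 0.989). Such a split, above every control in 1 knockout library and below in the other, was seen in Pdgfra and Rgs5 and in 14.3% of all tested rows. Within a library the ratio of Pdgfrb to Pdgfra was 1.39 to 1.56 in the controls, 3.36 in SKO_0 and 1.27 in SKO_1. RNA of adipocytes, which lie in tissue where Pdgfra-positive stroma is found, differed as well: the summed FPKM of 6 adipocyte markers was 3.77 to 6.37 in the controls, 0.295 in SKO_0 and 1.74 in SKO_1. Their part in the values of Pdgfra was not tested. Of these 6 markers Cfd was listed at 0 in every library, and Adipoq, the defining one, was at 1.29 to 2.77 in the controls, 0.0569 in SKO_0 and 0.515 in SKO_1.

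The PDGF ligands were measured in the same libraries. Of 4 tested ligand genes 0 passed by limma, and 2 (Pdgfa and Pdgfc) were higher at an unadjusted p under 0.05. Such a p was found in 29.1% of all tested rows, in either direction. Pdgfb, the ligand of endothelial cells that recruits pericytes through Pdgfrb, had FPKM values of 8.48, 9.04 and 9.58 in the controls, 19.1 in SKO_0 and 7.94 in SKO_1, which placed SKO_0 above and SKO_1 below the controls (log2 fold change 0.42, limma adjusted p = 0.447). Pdgfa was at 11.1 to 12.45 in the controls and at 13.8 and 14.3 in SKO_0 and SKO_1 (adjusted p = 0.109). Pdgfc was at 5.94 to 6.48, 7.004 and 8.25 (adjusted p = 0.156), and Pdgfd at 2.57 to 4.23, 6.25 and 3.19 (adjusted p = 0.437). Pdgfa and Pdgfc thus lay above every control in both knockout libraries, and Pdgfb and Pdgfd did so in SKO_0 alone.

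Cspg4 rose by about the same amount in both knockout libraries. Cspg4 (ENSMUSG00000032911.6, mm10 chromosome 9, 56865033 to 56899870, plus strand) encodes the proteoglycan NG2 on the surface of pericytes. Its FPKM was 2.96, 3.40 and 3.52 in Control_0, Control_1 and Control_2, 5.18 in SKO_0 and 5.25 in SKO_1. The knockout libraries lay close together and above every control. Its rise on the log2 scale was 0.54, with a 95% interval of 0.31 to 0.76 and an SE of 0.0887 (limma adjusted p = 0.0369, exact permutation p = 0.1). The call was lost without Control_0, Control_1 or Control_2 (limma adjusted p = 0.143, 0.101 and 0.177), without SKO_0 (adjusted p = 0.0507), with no filter on low values (adjusted p = 0.10) and with the replicate number from the titles as a block (adjusted p = 0.251). The log2 difference under those settings was 0.48 to 0.57, and the adjusted p over all alternatives 0.0333 to 0.251.

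Rgs5, a regulator of G-protein signalling that is among the most specific transcripts of pericytes, was higher in SKO_1. Rgs5 (ENSMUSG00000026678.10, mm10 chromosome 1, 169655501 to 169695813, plus strand) was measured at 9.41, 9.04 and 9.49 in the controls, 8.85 in SKO_0 and 14.6 in SKO_1. SKO_1 lay far above the narrow control range and SKO_0 just below it. The fit over both libraries gave a log2 fold change of 0.27 (SE 0.195, limma adjusted p = 0.409). SKO_1 alone gave 0.60 (adjusted p = 0.0253), SKO_0 alone -0.07 (adjusted p = 0.514). The ratio of Cspg4 to Rgs5 was 0.315 to 0.376 in the controls, 0.586 in SKO_0 and 0.359 in SKO_1, so the 2 pericyte genes kept their proportion in SKO_1 and not in SKO_0.

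Des (ENSMUSG00000026208.9, mm10 chromosome 1, 75360329 to 75368579, plus strand) encodes desmin, the intermediate filament of muscle, pericytes and mesangial cells. Its FPKM was 2.96, 3.65 and 3.53 in the controls, 4.79 in SKO_0 and 4.06 in SKO_1. Both knockout libraries lay above every control (log2 fold change 0.31, SE 0.112, limma adjusted p = 0.148). Of skeletal muscle, which also makes desmin, 8 markers summed to an FPKM of 1.83 to 1.93 in the controls, 2.215 in SKO_0 and 1.98 in SKO_1. Of these, SKO_0 lay above every control in 3 and below in 3 (all tested rows 34.2% and 43.9%). SKO_1 lay above every control in 1 and below in 3 (all tested rows 38.4% and 38.5%). Myh1, a myosin of fast muscle fibres, was listed at 0 to 0.00397 in the controls and was at 0.318 and 0.272 in SKO_0 and SKO_1, and Ckm and Myh4 were listed at 0 in at least 1 library. The part of skeletal muscle in the values of Des was not tested.

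Thy1 had the largest ratio of the 10 genes to its controls in SKO_0. Thy1 (ENSMUSG00000032011.5, mm10 chromosome 9, 44043384 to 44048579, plus strand) encodes a surface glycoprotein of fibroblasts, which in mice is also carried by T cells and neurons. Its FPKM was 1.77, 1.57 and 1.77 in the controls, 7.46 in SKO_0 and 2.675 in SKO_1, that is 4.38 and 1.57 times the control mean. Both knockout libraries lay above every control. The fit over both gave a log2 difference of 1.04 with a wide 95% interval of 0.18 to 1.91 (SE 0.344), and the threshold was missed (limma adjusted p = 0.124, exact permutation p = 0.1). SKO_0 alone gave 1.65 (adjusted p = 0.00181) and SKO_1 alone 0.44 (adjusted p = 0.0502).

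T cell transcripts were high in the same libraries as Thy1. The summed FPKM of 8 T cell markers was 3.46 to 4.403 in the controls, 12.4 in SKO_0 and 6.33 in SKO_1. Cd3e, part of the T cell receptor complex, was at 0.546 to 0.741 in the controls and at 2.065 and 1.00 in SKO_0 and SKO_1. Over all 8 markers, filtered or not, SKO_0 lay above every control in 8 and SKO_1 in 7 (all tested rows 34.2% and 38.4%). The exception was Cd8a, which was at 0.449 to 0.894 in the controls and at 0.526 in SKO_1. Of the 8 markers 3 were tested (Cd3e, Cd3g and Lck), which passed the filter on low values only through the knockout libraries, so nothing is read from their tests. No T cell marker was at 0 in any library. The summed FPKM of 7 neuron and glia markers was 3.22 to 3.42 in the controls, 2.98 in SKO_0 and 3.99 in SKO_1. The part of T cells in the values of Thy1 was not tested.

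The contractile genes split into pairs. Acta2 (ENSMUSG00000035783.9, mm10 chromosome 19, 34241090 to 34255590, minus strand) had an FPKM of 14.7, 21.8 and 16.2 in Control_0, Control_1 and Control_2, 45.0 in SKO_0 and 17.7 in SKO_1. Tagln (ENSMUSG00000032085.5, mm10 chromosome 9, 45929619 to 45936058, minus strand), which encodes transgelin, an actin-binding protein, had 17.3, 25.1 and 21.1 in the controls, 59.9 in SKO_0 and 23.7 in SKO_1. For both genes SKO_0 stood far above every control, at 2.56 and 2.83 times the control mean, and SKO_1 lay within the control range.

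Neither passed in the fit over both libraries. Acta2 had a log2 fold change of 0.68 (95% interval -0.31 to 1.67, SE 0.395, limma adjusted p = 0.308) and Tagln one of 0.82 (95% interval -0.17 to 1.81, SE 0.393, adjusted p = 0.231). SKO_0 alone gave 1.33 (adjusted p = 0.0269) and 1.47 (adjusted p = 0.0188), and SKO_1 alone 0.03 (adjusted p = 0.933) and 0.17 (adjusted p = 0.605). In SKO_0 the differences of Acta2 and Tagln exceeded those of 97.6% and 98.1% of all tested rows. The value of Acta2 is uncertain as far as reads were shared with its near-identical paralogs, of which Actg2 was at 0.557, 1.95 and 1.11 in the controls, 1.94 in SKO_0 and 0.489 in SKO_1. In the GENCODE M21 annotation 1241 of the 1988 exonic bases of Tagln are shared with a gene on the opposite strand, so without strand its reads cannot be told apart from that gene's. The like shares were 456 of 10024 bases for Pdgfra and 220 of 3754 for Des.

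Myh11 and Cnn1 did not share the high values of SKO_0. Myh11 (ENSMUSG00000018830.10, mm10 chromosome 16, 14194535 to 14291372, minus strand) was measured at FPKM values of 4.545, 6.90 and 5.83 in the controls, 3.43 in SKO_0 and 5.04 in SKO_1. SKO_0 lay below every control and SKO_1 among them (log2 fold change -0.37, SE 0.199, limma adjusted p = 0.278). Cnn1 (ENSMUSG00000001349.5, mm10 chromosome 9, 22099216 to 22109630, plus strand) had 1.10, 2.17 and 1.39 in the controls, 1.12 in SKO_0 and 0.983 in SKO_1. Here SKO_0 lay at the low end of the controls and SKO_1 just below them (log2 fold change -0.29, SE 0.197, adjusted p = 0.373).

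**Figure D2:**
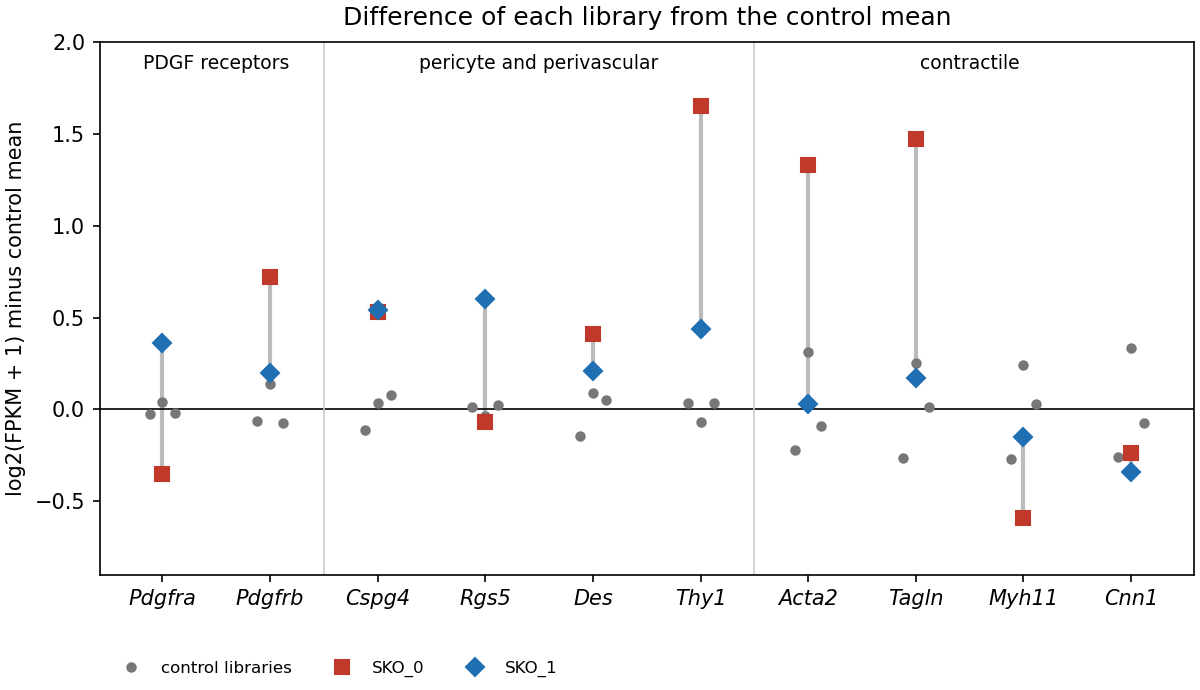
Difference of each library from the control mean on the log2(FPKM + 1) scale, for the 3 controls (grey circles), SKO_0 (red squares) and SKO_1 (blue diamonds), with a grey line joining the knockout libraries. The knockout libraries coincide for Cspg4 (0.53 and 0.54), lie on opposite sides of 0 for Pdgfra (-0.35 and 0.36), and are far apart for Thy1, Acta2 and Tagln.

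Ratios taken within a library do not depend on how libraries were scaled to each other. The ratio of Tagln to Acta2 was 1.17, 1.15 and 1.30 in the controls and 1.33 in both knockout libraries, so these genes kept nearly the same proportion in all 5 libraries, the knockout ratio lying just above the controls. The ratio of Acta2 to Myh11 was 3.24, 3.16 and 2.78 in the controls, 13.1 in SKO_0 and 3.52 in SKO_1, and that of Acta2 to Cnn1 was 11.7 ± 1.70 (SD, n = 3) in the controls, 40.1 in SKO_0 and 18.0 in SKO_1. Against the pericyte receptor, the ratio of Acta2 to Pdgfrb was 1.98 to 2.49 in the controls, 3.31 in SKO_0 and 1.94 in SKO_1. Both ratios to the markers of differentiated smooth muscle were outside the control range in SKO_0, and in SKO_1, where they lay nearer to it.

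**Figure D3:**
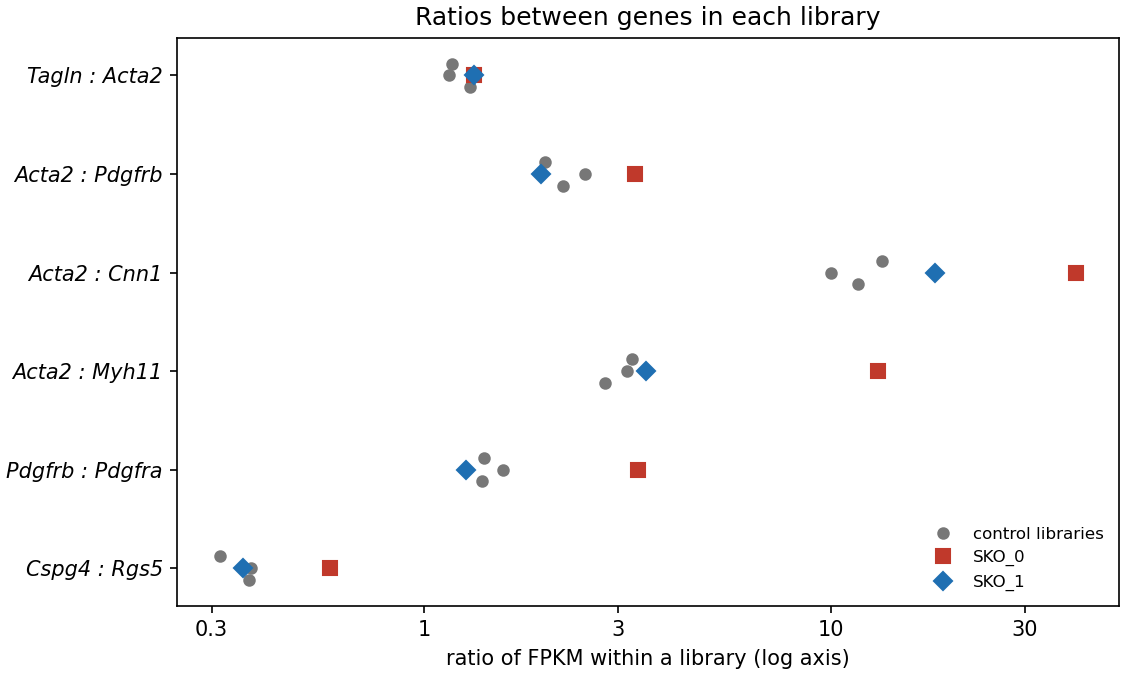
Ratio of the FPKM of a pair of genes within each library (log axis), for the controls (grey circles), SKO_0 (red squares) and SKO_1 (blue diamonds). The ratio of Tagln to Acta2 stays between 1.15 and 1.33, whereas that of Acta2 to Myh11 is 2.78 to 3.24 in the controls and 13.1 in SKO_0.

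Among the controls the contractile genes varied together. Control_1 was the highest and Control_0 the lowest control for all 4 of Acta2, Tagln, Myh11 and Cnn1, whose summed FPKM was 37.6, 56.0 and 44.55 in Control_0, Control_1 and Control_2. Over all tested rows Control_1 was the highest control in 36.8%. It was also the highest for 12 of 16 other contractile genes, for 14 of 14 genes of fibroblast matrix, for 6 of 6 podocyte genes, for 5 of 6 genes of mesangial and juxtaglomerular cells and for 6 of 6 urothelial genes. In other lists it was the highest for 6 of 12 other pericyte genes, 4 of 8 transforming growth factor beta genes, 3 of 8 endothelial genes, 1 of 7 macrophage genes, 1 of 7 regulators of contractile genes and 0 of 4 PDGF ligands. The contractile genes thus had wider control ranges than Pdgfra or Rgs5, which lay within 5.32 to 5.61 and 9.04 to 9.49.

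The sequence before the start of Acta2 holds sites of the kind through which contractile genes are known to be controlled. Serum response factor, a transcription factor of muscle, binds the CArG box, whose core is made of A and T, and TEAD factors bind the MCAT element. RefSeq promoter windows (build GRCm38.p6) were found for 6 of the 10 genes (Pdgfra, Acta2, Cspg4, Des, Rgs5 and Cnn1). In the 250 bases before the RefSeq start both strands were searched for the CArG box, for the CArG box with 1 G or C in its core, and for MCAT (CATTCC, or GGAATG on the other strand). They were found in 1.47%, 7.24% and 12.6% of all 32851 windows. Of the 6 genes Acta2 alone had matches: 2 CArG boxes with 1 G or C in the core, first base 84 and 34 before the start, and 1 MCAT element, first base 146 before it, none overlapping another. A window with 2 or more such CArG boxes made up 0.548% of all windows. The 3 sites are printed on the strand of the gene with the match in capitals. No window was found for Tagln or Myh11, so of each pair of contractile genes just 1 was searched. Whether these sites bear on the values of Acta2 was not tested. GENCODE M21 also places them in the first, noncoding exon of an Acta2 transcript that starts further upstream.
Acta2 CArG-like box at 84, chr19:34255438-34255467, minus strand: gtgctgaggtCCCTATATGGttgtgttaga
Acta2 CArG-like box at 34, chr19:34255388-34255417, minus strand: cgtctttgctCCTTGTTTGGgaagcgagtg
Acta2 MCAT element at 146, chr19:34255502-34255531, minus strand: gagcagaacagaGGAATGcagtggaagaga

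The window of Cnn1, the other contractile gene with a window, is printed up to the first annotated start in GENCODE M21. It held 0 matches to the 3 motifs, so it has no capitals, which says only that these letters are not in the window.
Cnn1, chr9:22099003-22099215, plus strand: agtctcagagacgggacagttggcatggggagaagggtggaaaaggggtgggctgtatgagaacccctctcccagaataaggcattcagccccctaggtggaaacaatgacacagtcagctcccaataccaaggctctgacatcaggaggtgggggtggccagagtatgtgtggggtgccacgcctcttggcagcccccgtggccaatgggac

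Of 20 other contractile genes 16 were tested, of which 1 rose, 0 fell and 15 did not pass, a share near the 6.34% called over all tested rows, with a median log2 fold change of 0.22 (all tested rows -0.02). By library the median difference was 0.35 in SKO_0 and 0.14 in SKO_1. Cald1, caldesmon, an actin-binding protein of smooth muscle and other cells, had a control mean of 15.55 ± 0.755 (SD, n = 3) and rose to 27.1 and 23.05 in SKO_0 and SKO_1 (log2 fold change 0.65, limma adjusted p = 0.0278). Its call was lost without Control_0, Control_1 or Control_2 (limma adjusted p = 0.14, 0.0795 and 0.17), with no filter on low values (adjusted p = 0.08) and with the replicate block (adjusted p = 0.24). Flna, the actin cross-linker filamin A, was at 12.2 ± 0.988 in the controls, 31.7 and 19.2 (adjusted p = 0.059), and Smtn, smoothelin, at 30.96 ± 1.79, 39.2 and 38.95 (adjusted p = 0.0655). Mylk, myosin light chain kinase, was at 14.8 ± 1.08, 11.3 and 11.98, below every control in both knockout libraries (adjusted p = 0.0822).

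Other pericyte genes moved in both directions. Of 15 listed genes 12 were tested, of which 1 rose, 1 fell and 10 did not pass, with a median log2 fold change of 0.06. Over all tested rows 2.73% were called higher and 3.62% lower, and the median was -0.02. Abcc9, the regulatory subunit of the potassium channel of pericytes and vascular smooth muscle that closes with ATP, had a control mean of 4.15 ± 0.248 (SD, n = 3) and fell to 1.91 in SKO_0 and 2.375 in SKO_1 (log2 fold change -0.72, limma adjusted p = 0.0278). Kcnj8, the pore subunit of the same channel, was at 5.11, 3.69 and 4.35 in the controls and at 3.51 and 3.06 in SKO_0 and SKO_1, also below every control (adjusted p = 0.184). Anpep, an aminopeptidase that is found on pericytes but far more on the brush border of proximal tubules, rose from 64.8 ± 1.38 to 100.5 and 83.9 (adjusted p = 0.0482). The calls of Abcc9 and Anpep were lost without Control_0 (limma adjusted p = 0.141 and 0.172), Control_1 (adjusted p = 0.0863 and 0.13) or Control_2 (adjusted p = 0.17 and 0.213). Both were also lost with no filter on low values (adjusted p = 0.0869 and 0.114) and with the replicate block (adjusted p = 0.247 and 0.273). That of Anpep was lost too without SKO_0 (adjusted p = 0.0546), with median-of-ratios scaling (adjusted p = 0.0549) and with no variance trend (adjusted p = 0.0522). Gucy1a3, a subunit of the nitric oxide receptor of smooth muscle, was at 4.04 ± 0.734 in the controls, 8.28 and 5.81, and Notch3, a receptor of mural cells, at 2.44 ± 0.206, 3.23 and 3.17, and neither passed (adjusted p = 0.0871 and 0.114).

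Of 7 tested genes of serum response factor and its cofactors 0 passed by limma, and 3 were higher without adjustment (p under 0.05). Without adjustment 29.1% of all tested rows had such a p, in either direction. Srf itself had a control mean of 8.78 ± 0.371 (SD, n = 3) and values of 11.5 and 9.69 in SKO_0 and SKO_1 (limma adjusted p = 0.157). Mkl1, the cofactor that carries actin signals into the nucleus, was at 4.35 ± 0.152, 5.76 and 5.74 (adjusted p = 0.0538), and Fhl2, a cofactor with LIM domains, at 11.4 ± 0.851, 19.5 and 14.6 (adjusted p = 0.0807). Fhl1, a LIM protein of muscle, was at 140.9 ± 16.9, 125.4 and 93.6 (adjusted p = 0.21).

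Matrix genes of fibroblasts and the transforming growth factor beta genes had larger median differences from the controls in SKO_0 than in SKO_1. Of 14 tested matrix genes 0 passed by limma (2 were higher at an unadjusted p under 0.05), with a median difference of 1.15 in SKO_0 and 0.17 in SKO_1. Over all tested rows 29.1% had an unadjusted p under 0.05, in either direction. SKO_0 lay above every control in 12 of the 14 and SKO_1 in 5 (all tested rows 34.2% and 38.4%), the latter near the share over all rows. Fn1, fibronectin, had a control mean of 4.71 ± 0.923 (SD, n = 3) and values of 22.1 and 6.655 in SKO_0 and SKO_1 (limma adjusted p = 0.156), and Dcn, decorin, was higher in SKO_1 than in SKO_0, at 21.0 ± 3.37, 27.0 and 35.1 (adjusted p = 0.111). Tnc, the matrix protein tenascin C, was at 2.19 ± 0.564, 3.215 and 3.07 (adjusted p = 0.179), and Loxl2, a collagen cross-linking enzyme, at 3.36 ± 0.285, 8.76 and 3.91 (adjusted p = 0.195). Fn1 and Loxl2 were thus highest in SKO_0. Of 8 tested transforming growth factor beta ligands and early targets 0 passed (3 were higher at an unadjusted p under 0.05), with a median of 1.14 in SKO_0 and 0.20 in SKO_1. SKO_0 and SKO_1 each lay above every control in 6 of the 8. In that they differed from Acta2 and Tagln, for which SKO_1 lay within the controls. The ligand Tgfb1 was at 6.06 ± 0.119 in the controls, 14.4 and 7.14 (adjusted p = 0.167), and Tgfbi, a matrix protein that it induces, at 3.65 ± 0.343, 18.9 and 5.16 (adjusted p = 0.158). The ligands Tgfb2 and Tgfb3 were at 0.704 ± 0.0591, 2.19 and 1.29 (adjusted p = 0.0795) and at 0.712 ± 0.00942, 2.83 and 0.996 (adjusted p = 0.177).

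**Figure D4:**
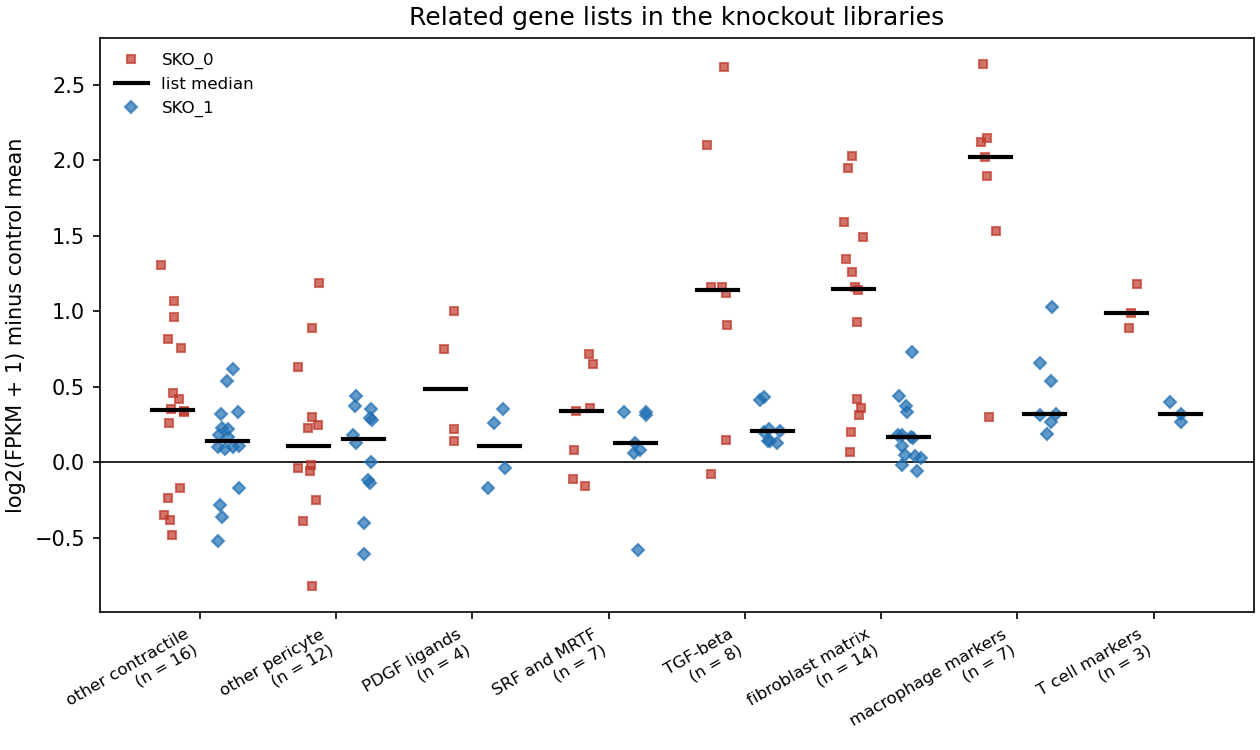
Difference from the control mean on the log2(FPKM + 1) scale for each tested gene of 8 related lists, in SKO_0 (red squares) and SKO_1 (blue diamonds), with a black bar at the list median. The medians of fibroblast matrix are 1.15 and 0.17 and those of macrophage markers 2.02 and 0.32, whereas other pericyte genes are centred at 0.11 and 0.15 with members on both sides of 0. The 3 T cell markers shown passed the filter on low values only through the knockout libraries.

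Macrophage transcripts were high in the same library as Acta2, Tagln and Thy1. The summed FPKM of 8 macrophage markers was 77.2 to 87.9 in the controls, 334.9 in SKO_0 and 116.4 in SKO_1, and none was at 0 in any library. All 8 lay above every control in both knockout libraries, as did 21.9% of all tested rows. Of the 7 tested 0 passed by limma (4 had an unadjusted p under 0.05, against 29.1% of all tested rows). Endothelial markers, by contrast, summed to 213.8 to 219.4 in the controls, 232.1 in SKO_0 and 231.3 in SKO_1. The part of other cell types in the values of the 10 genes was not tested.

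Genes whose profile over the 5 libraries was most like that of a member were found by the Euclidean distance between log2(FPKM + 1) values relative to the control mean. For Pdgfrb they were Cenpt (distance 0.0567), Rassf4 (0.0672), Pros1 (0.0795) and Foxs1 (0.0983). Pros1, protein S, was at 8.21, 9.66 and 8.74 in the controls, 15.1 in SKO_0 and 10.6 in SKO_1. For Acta2 they were Ccna2 (distance 0.0943), Plk1 (0.172), Sparc (0.173) and Fbn1 (0.176). Ccna2 and Plk1 encode a cyclin and a kinase of cell division, and Sparc and Fbn1 matrix proteins. Sparc was at 73.6, 108.1 and 91.96 in the controls, 230.9 in SKO_0 and 86.7 in SKO_1, with Control_1 the highest and Control_0 the lowest of the controls as for Acta2.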

How the data were processed

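The authors deposited 1 table of FPKM values with 1 column per library, and 0 columns were left without a library. The submitters' processing notes name bcl2fastq and mm10. Not given in the sources used here are the strandedness, the annotation, the aligner and how FPKM was calculated. Per the labels' protocols, libraries were made with an Illumina mRNA-seq kit from whole-kidney RNA.

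FPKM summed to 462814.3 to 507052.8 per library. The table gives no read counts. Of the low values checked, 33.1% to 38.9% lay within 0.1 of a whole multiple of the unit tried, against 20% if spread evenly. They thus fell on whole steps in part only, and the unit is not known to stand for 1 read. Depth is therefore unknown and no count test was run. Testing on log2(FPKM + 1) covered the 12640 of 23997 rows whose FPKM averaged 1 or more over all 5 libraries, and all 10 members passed this filter. Folds are on that scale, which understates low genes. The test was limma 3.58.1 in R 4.3.3 (eBayes with a variance trend, two-sided, Benjamini-Hochberg adjustment over all tested rows, threshold 0.05), checked on simulated data, with an exact permutation test for single members. Other software was Python 3.11.15, numpy 2.4.6, pandas 2.3.3 and matplotlib 3.10.9. Positions are from GENCODE M21 and promoters from RefSeq GRCm38.p6.

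The members and lists were chosen with earlier results of these data known. Named genes were the members, up to 4 genes per related list by adjusted p, and the 4 genes nearest to Pdgfrb and to Acta2 in profile. Kcnj8, Cd3e, Cd3g, Lck, Cd8a, Myh1, Krt20, Actg2, Adipoq, Pkd1, Havcr1, Xist and Ddx3y were named in addition after their values were seen. Of the listed symbols, Gucy1a1, Gucy1b1 and Adgre1 are Gucy1a3, Gucy1b3 and Emr1 in the table, and Mrtfa, Mrtfb and Ccn2 repeat Mkl1, Mkl2 and Ctgf. Alternatives were a pseudocount of 0.1, no filter, a mean FPKM of at least 5, rescaling to TPM, median-of-ratios scaling, quantile normalization, robust variances, no variance trend, a block for the replicate number, leaving each library out in turn, and rows with a value of exactly 0 left out.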

Additional observations from a re-analysis of the deposited data

How the results depend on the processing

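Over all genes limma called 802 rows, 345 higher and 457 lower, and rescaled to TPM 720, 454 higher and 266 lower, with Cspg4 the only member called in either. The count was 247 with no filter on low values and 28 under the replicate block, which uses the numbers in the titles, and it was 36 to 2599 over the fits that left out 1 library (37, 155 and 36 without Control_0, Control_1 and Control_2, 1054 without SKO_0, 2599 without SKO_1). Members called, 1 of 10, were 0 with no filter (1 at an unadjusted p under 0.05), 0 of 6 tested at a mean FPKM of at least 5 (1 unadjusted), 0 with the replicate block (3 unadjusted), and 0 to 6 with 1 library left out. The median log2 fold change of the members, 0.39, was 0.21 to 0.47 with 1 library left out and 0.34 to 0.49 under the other settings. The cause of these shifts was not tested. The equal numbers in the titles are not said to pair libraries. The deviations of same-numbered libraries had a correlation across genes of 0.128 (number 0) and 0.0185 (number 1), against 0.166 for Control_2 and SKO_1, which share no number. With the replicate block Cspg4 had a log2 fold change of 0.57 (limma adjusted p = 0.251).

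For single members 146 alternative values were computed, of which 128 kept direction and side of the threshold, 6 lost a call, 5 gained one and 7 turned. Pdgfra, at 0.01 as reported, turned to -0.00093 with a pseudocount of 0.1, -0.07 after quantile normalization, -0.0034 with the replicate block, and -0.0054, -0.0034 and -0.35 without Control_0, Control_2 and SKO_1. Rgs5 turned to -0.07 without SKO_1. Without SKO_0 they were at 0.36 (Pdgfra) and 0.60 (Rgs5). Of 352 values for 24 related genes 316 kept direction and side of the threshold, 18 lost a call, 16 gained one and 2 turned, Pdgfd to -0.039 and Pdgfb to -0.17, both without SKO_0, against 0.75 for Pdgfd without SKO_1. Cald1, Abcc9 and Anpep, the related genes called, were called in 10 of 15, 9 of 14 and 7 of 15 alternatives. Depth is unknown, so no limit of detection can be given.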

Other observations

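Cells that neighbour the mural cells were measured through their own markers. Over all tested rows 29.1% had an unadjusted limma p under 0.05, in either direction, and the median log2 fold change was -0.02. Of 6 tested podocyte genes 0 passed by limma (0 at an unadjusted p under 0.05), with a median log2 fold change of -0.04. Of 6 tested genes of mesangial and juxtaglomerular cells 0 passed (0 at an unadjusted p under 0.05), at a summed FPKM of 96.5 to 149 in the controls, 88.7 in SKO_0 and 98.8 in SKO_1. Of 8 tested endothelial genes 0 passed (2 were higher at an unadjusted p under 0.05), with a median log2 fold change of 0.15. Of 6 tested urothelial genes 0 passed (4 were lower at an unadjusted p under 0.05), with a median log2 fold change of -0.85. Without Krt20 the other 5 summed to 15.6 to 23.2 in the controls, 4.56 in SKO_0 and 10.4 in SKO_1, whereas Krt20, a keratin, was at 0.295 to 0.725 in the controls, 11.5 in SKO_0 and 0.808 in SKO_1. With Krt20 the sum was 15.9 to 23.9 in the controls, 16.0 in SKO_0 and 11.2 in SKO_1.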
